A study of Mus musculus with 8 samples.

Results

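Cytosolic ribosomal protein genes were examined in mouse embryonic stem cells, cultured pluripotent cells that derive from the early embryo. Members were chosen by symbol from the count table: symbols of Rpl or Rps followed by a number, the P-protein genes Rplp0, Rplp1 and Rplp2, and Rpsa, without symbols that contain "-ps". This gave 89 of 57010 genes, 53 for the large (60S) and 36 for the small (40S) subunit. Of these, 12 are second copies by name, such as Rpl39l beside Rpl39. In the annotation 83 members are protein coding. The second copies Rps12l1, Rps3a2, Rps3a3, Rpl6l and Rpl32l are annotated as processed pseudogenes and Rps4l as a transcribed processed pseudogene. In all, 88 members passed the filter on low counts, because Rps12l1 had 0 counts in all 8 libraries.

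RNA was sequenced in 4 groups of 2 libraries: cells labelled HSVTK with ganciclovir (GANC), HSVTK with the solvent DMSO, Control with GANC, and Control with DMSO. Per the series' design text, the HSVTK line carries a 2C::HSVTK reporter, with which ganciclovir is meant to remove 2-cell-like cells. These are rare cells of such cultures that express genes of the 2-cell embryo. The viral thymidine kinase turns ganciclovir into a toxic nucleotide in the cells that make the kinase. The labels give no dose, no duration, no description of what Control cells carry and no statement on clones or separate cultures, so each p-value reflects library-to-library spread within a group, which can be technical alone.

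Libraries held 29704460 to 34184475 counts. All 8 embryonic stem cell markers on the list were detected in every group, with summed levels of 4957 to 6268 CPM (counts scaled to 1e+06 per library with TMM factors). Summed markers of fibroblasts were 10.2 to 24.2 CPM, of primitive endoderm 2.72 to 8.07 CPM, of trophectoderm 5.23 to 8.29 CPM, of mesoderm 0.498 to 1.75 CPM and of neuroectoderm 17.5 to 51.9 CPM. The 5 markers of 2-cell-like cells summed to 25.7 and 28.9 CPM in the libraries labelled HSVTK GANC, against 14.8 and 15.5 CPM in HSVTK DMSO, 11.2 and 13.5 CPM in Control GANC and 12.3 and 13.9 CPM in Control DMSO. This goes against the removal that the label implies, so every direction given here for these libraries is that of the libraries labelled HSVTK GANC. Mitochondrial genes took 3.56 and 3.45% of counts in the libraries labelled HSVTK GANC and 2.88 to 3.17% in the other 6, and the part of this in the results was not tested.

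A ribosome joins a small subunit, which decodes the mRNA, to a large subunit, which forms the peptide bond. Each subunit is assembled in the nucleolus from ribosomal RNA made by RNA polymerase I and from proteins encoded by scattered genes, most of them present as a single active copy beside many processed pseudogenes. In vertebrates most ribosomal protein mRNAs begin with a terminal oligopyrimidine (TOP) tract, a C at the first base followed by a run of C and T, through which mTORC1 and the protein Larp1 set how much of the mRNA is translated. Pluripotent cells are known for high ribosome production. Some second copies are known from particular tissues, such as Rpl3l in heart and skeletal muscle and Rpl10l and Rpl39l in the testis.

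The start of the transcript is shown first, because the TOP tract is the feature these mRNAs share. RefSeq windows of GRCm38.p6, from 250 bases before to 50 after the annotated start, were matched for 64 of the 89 members. The following 30-base windows have the annotated start at position 16 and are read 5′ to 3′ on the gene's strand. Capitals mark a C followed by at least 4 pyrimidines that begins within 5 bases of the start. Rpl22l1, Rpl27a, Rpl28 and Rps26 are among the members with the largest decreases described below. Rpl26 and Rpsa decreased by a similar amount and have no such tract in this position. Rpl7l1, Rpl39l and Rpl10l are second copies by name that moved differently from most members, and Rpl39 is the main copy of Rpl39l.
Rpl22l1, chr3:28805493-28805522, plus strand: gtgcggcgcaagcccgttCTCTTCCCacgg
Rpl27a, chr7:109519180-109519209, plus strand: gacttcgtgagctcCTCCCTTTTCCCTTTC
Rpl28, chr7:4792950-4792979, plus strand: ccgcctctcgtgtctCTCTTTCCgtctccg
Rps26, chr10:128626492-128626521, minus strand: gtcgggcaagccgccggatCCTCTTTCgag
Rpl26, chr11:68901551-68901580, plus strand: ctcgcggcaacttacagaaccggaagtcgc
Rpsa, chr9:120127751-120127780, plus strand: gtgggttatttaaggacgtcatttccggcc
Rpl7l1, chr17:46782642-46782671, minus strand: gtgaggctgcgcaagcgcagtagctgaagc
Rpl39l, chr16:10170213-10170242, plus strand: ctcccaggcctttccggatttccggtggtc
Rpl39, chrX:37085208-37085237, minus strand: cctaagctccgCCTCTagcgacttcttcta
Rpl10l, chr12:66284387-66284416, minus strand: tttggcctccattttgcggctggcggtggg

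A tract beginning within 5 bases of the annotated start was found in 30 of the 64 members (46.9%), against 21.2% of all 27025 genes with a window. With the tract exactly at the start, the counts were 14 of 64 members (21.9%) and 3.01% of all genes. Among members with a window, the near-start tract was present in 9 of the 24 called lower in the libraries labelled HSVTK GANC and in 21 of the 39 not called. The annotated start can lie some bases from the start used in these cells, so a missing tract says only that it is not at this position.

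Promoter motifs were searched on both strands of the same windows. The core of ETS factor sites, CCGGAA or TTCCGG, was present in 54.7% of members and in 16.7% of all genes. The GC box, GGGCGG or CCGCCC, was present in 60.9% of members and in 38.2% of all genes. The core of YY1 sites, AANATGGC or its reverse complement, was present in 20.3% of members and in 6.96% of all genes, while TATAAA or TTTATA was present in 12.5% of members and 15.7% of all genes and CACGTG in 9.38% of members and 8.09% of all genes. The ETS core stood in 12 of the 24 members called lower and in 22 of the 39 not called. The 100 bases before the start of a main gene that decreased, Rpsa, and of a second copy that differed between the cell groups, Rpl39l, are shown with this core in capitals.
Rpsa, chr9:120127666-120127765, plus strand: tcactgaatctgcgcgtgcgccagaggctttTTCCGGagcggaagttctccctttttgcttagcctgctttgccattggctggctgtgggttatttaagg
Rpl39l, chr16:10170128-10170227, plus strand: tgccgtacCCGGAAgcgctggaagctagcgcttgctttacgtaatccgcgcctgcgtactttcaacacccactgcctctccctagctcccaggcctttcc

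Ribosomal protein genes took a large share of the RNA in every group. Their share of all counts was 8.99 and 9.39% in the libraries labelled HSVTK GANC, against 9.63 and 9.92% in HSVTK DMSO. In Control GANC it was 9.20 and 9.75%, against 9.62 and 9.32% in Control DMSO. The libraries of the 2 HSVTK groups did not overlap, whereas those of the Control groups did. The mean share was 9.19 ± 0.285% in HSVTK GANC and 9.78 ± 0.211% in HSVTK DMSO (SD, n = 2 each), a gap about as wide as that between the 2 libraries of Control GANC. Large subunit genes held 5.23 ± 0.157% of counts in HSVTK GANC and 5.59 ± 0.125% in HSVTK DMSO, and small subunit genes 3.96 ± 0.128% in HSVTK GANC and 4.18 ± 0.0868% in HSVTK DMSO (SD, n = 2 each). The ratio of large to small subunit counts was 1.32 and 1.32 in HSVTK GANC, 1.34 and 1.34 in HSVTK DMSO and 1.31 to 1.32 in the 4 Control libraries. In bulk RNA, fewer cells of a type and less RNA per cell cannot be told apart.

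**Figure D1:**
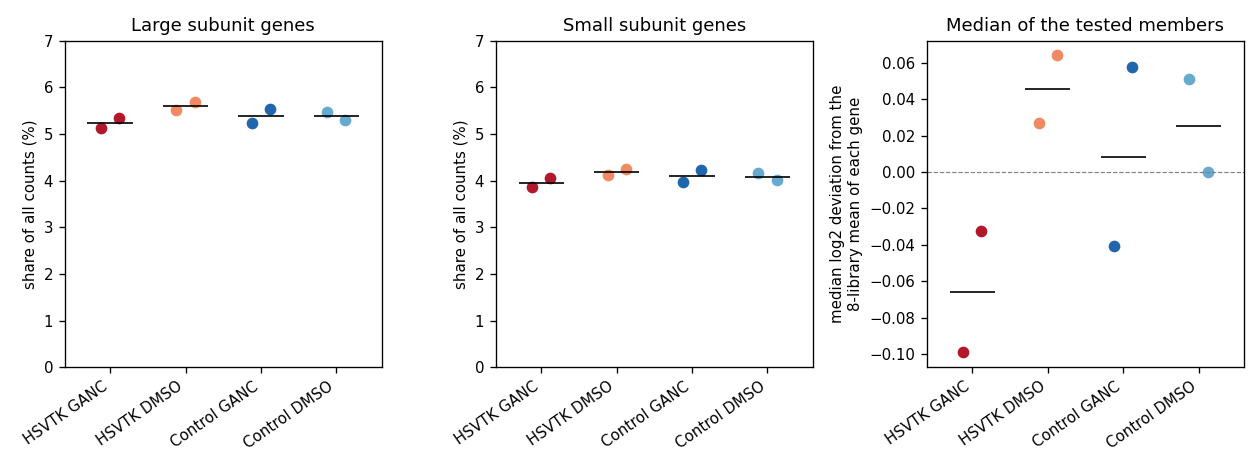
Share of all counts (%) held by large and small subunit genes, and the median log2 deviation of the 88 tested members from their 8-library means, in each library (points; line: mean of 2). The libraries labelled HSVTK GANC have the lowest mean share for both subunits, and their median deviations of -0.10 and -0.03 lie below those of HSVTK DMSO, at 0.03 and 0.06, while the 2 libraries of Control GANC, at -0.04 and 0.06, span a similar distance.

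The whole family shifted together between libraries of the same group. Between the 2 libraries of a group, the median difference of the 88 members was 0.06 on the log2 scale in HSVTK GANC, 0.04 in HSVTK DMSO, 0.10 in Control GANC and -0.06 in Control DMSO (replicate 2 minus replicate 1). Of the 88 members, 79 were higher in replicate 2 in each of the first 3 groups, and 6 were in Control DMSO. Over all tested genes with at least 100 CPM, the median difference was -0.0008 in HSVTK GANC and -0.004 in HSVTK DMSO. It was 0.035 in Control GANC and -0.007 in Control DMSO, so part of the shift in Control GANC was not particular to the family. A family-wide difference of about 0.1 between groups is therefore as large as the difference between libraries of the group with the largest spread.

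Levels per length spanned more than 3 orders of magnitude. In the deposited FPKM, Rplp1, an acidic protein of the large subunit stalk, was highest with a mean of 3273 over 8 libraries, followed by Rps15 with 2140 and Rps2 with 1704, while the median over tested members was 532. The lowest tested members were Rpl3l with 0.883 FPKM, Rpl32l with 0.938 and Rpl24 with 1.35. Rpl3l had 1.24 and 1.53 CPM in the libraries labelled HSVTK GANC, 1.53 and 1.43 CPM in HSVTK DMSO, 1.64 and 1.49 CPM in Control GANC and 1.57 and 1.20 CPM in Control DMSO, so its groups overlapped. The length used for FPKM is that of all annotated exons joined, which for Rplp2 is 2072 bases and for Rplp1 499 bases, so FPKM is lowered for genes with long rarely used exons.

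Several low values belong to genes that every ribosome needs, and annotated neighbours or copies share their sequence. Rpl24 had 31 to 57 counts a library, and 81.7% of the 50-base stretches of its transcripts also occur in other genes, 69.4% in Gm28037, which had 0 counts. Rps10 had 419 to 616 counts, with 24.9% of its stretches in a joined transcript annotated as RPS10-NUDT3. Rpl13a, with 2666 to 3287 counts, shares 41.1% with Gm45713, which had 0 counts. The sources used here do not say how reads matching several genes were treated, so the levels of these genes are uncertain.

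Across the 88 tested members, a median of 37.1% of the 50-base stretches occurred in transcripts of other genes. Rpl35 had the highest value with 95.1%, followed by Rps3a2, annotated as a processed pseudogene, with 90.2%. Most of this is shared with Rps3a1, so the values of these 2 genes are not independent. Of genes called below, Rpl23a had 85.7%, Rpl36a 85.5%, Rpl5 85.4% and Rpl22l1 58.9%, so their calls are uncertain where reads could go to copies. In contrast, Rpl39l had no shared stretch, Rpl7l1 had 7.48%, Rpl10l 7.60% and Rps4l 14.9%. Members called lower in the HSVTK drug comparison had a median of 44.4% and those not called 35.4%, with median levels of 1331 CPM for those called lower and 797 CPM for those not called.

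Ganciclovir against DMSO in HSVTK cells is the comparison the reporter was built for. In the libraries labelled HSVTK GANC, 30 of 88 members fell and 1, Rpl7l1, rose, as called by edgeR's quasi-likelihood test at an adjusted p below 0.05 over all 17976 tested genes. Of all tested genes, 15.2% were called lower and 13.3% higher, and of those with at least 100 CPM, where 78 of the members lie, 20.5% were called lower and 16.2% higher. The median member change was -0.11 on the log2 scale, against 0.01 over all tested genes and -0.01 over those with at least 100 CPM. In the large subunit, 21 of 53 members fell and 1 rose (median -0.11), and in the small subunit 9 of 35 fell and none rose (median -0.10). The 2 libraries of each group did not overlap in 63 members that were lower and 5 that were higher, against 31.9% of all tested genes lower and 32.4% higher.

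**Figure D2:**
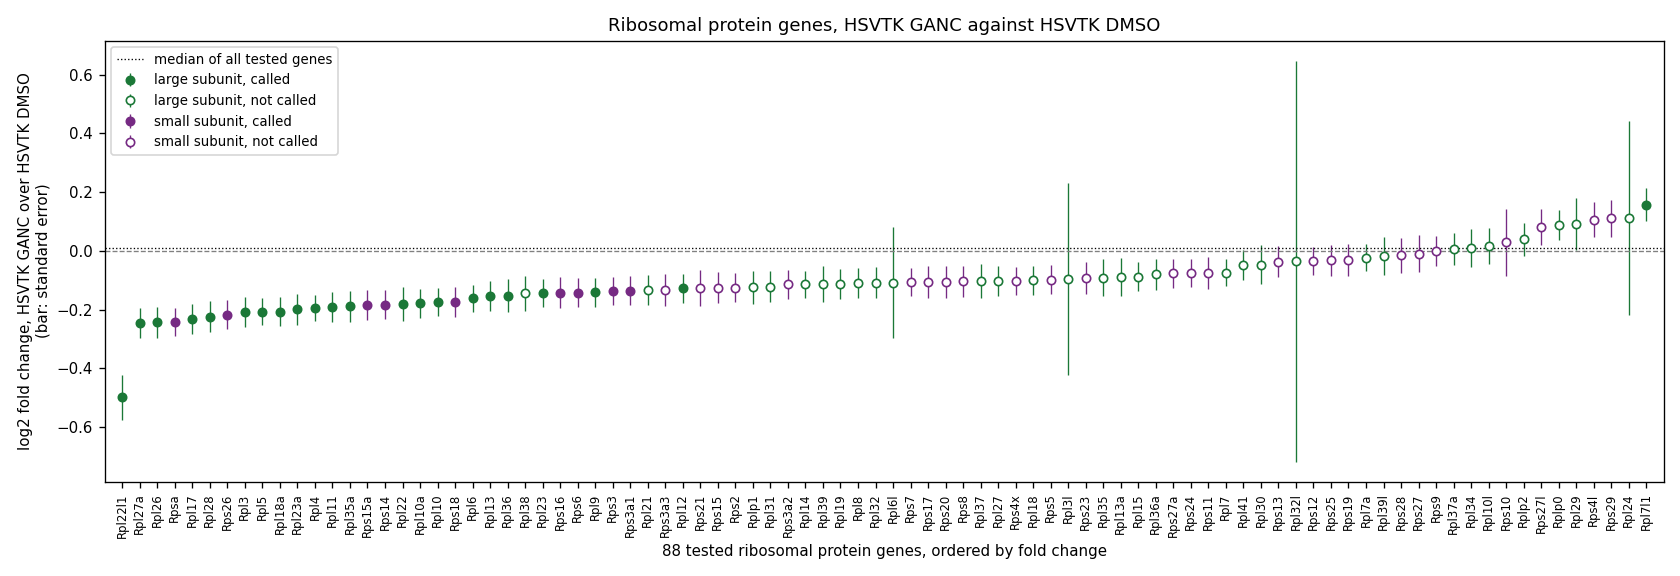
Log2 fold change of the 88 tested ribosomal protein genes, libraries labelled HSVTK GANC over HSVTK DMSO, with its standard error, ordered by size (green: large subunit, purple: small subunit, filled: adjusted p below 0.05). Rpl22l1 stands apart at -0.50, and most other called members lie between -0.25 and -0.13. Rpl7l1 at 0.16 is the only member called higher, a call that was lost in some settings.

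Rpl22l1, the second copy of the large subunit protein gene Rpl22, had the largest change. It had 41.9 and 43.3 CPM in the libraries labelled HSVTK GANC, against 59.1 and 61.2 CPM in HSVTK DMSO. Both HSVTK GANC libraries lay below all other libraries, since Control GANC had 50.7 and 54.2 CPM and Control DMSO 53.2 and 56.1 CPM. The log2 fold change was -0.50 ± 0.08 (SE, edgeR adjusted p = 1.25e-05), or 29.2% lower. Rpl22, its partner, was lower by less, with 468 and 501 CPM in HSVTK GANC, against 534 and 564 CPM in HSVTK DMSO (log2 fold change -0.18 ± 0.06, edgeR adjusted p = 0.0162).

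Rpl27a and Rpl26 encode large subunit proteins, and Rpsa encodes the small subunit protein uS2, also known as the laminin receptor precursor. Rpl27a had 1518 and 1539 CPM in the libraries labelled HSVTK GANC, against 1761 and 1866 CPM in HSVTK DMSO (log2 fold change -0.25 ± 0.05, edgeR adjusted p = 0.000405). Rpl26 had 870 and 959 CPM in HSVTK GANC, against 1073 and 1094 CPM in HSVTK DMSO (-0.24 ± 0.05, edgeR adjusted p = 0.000676). Rpsa had 2644 and 2792 CPM in HSVTK GANC, against 3189 and 3244 CPM in HSVTK DMSO (-0.24 ± 0.05, edgeR adjusted p = 0.00027). None of the 3 genes overlapped between these groups. The remaining called decreases were 0.23 or less in size, so the fall was small for each gene, down to 0.13 for Rpl12.

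Other members of known roles were among the called genes. Rpl5 and Rpl11, which form the complex with 5S ribosomal RNA that binds Mdm2, fell by 0.21 ± 0.05 (edgeR adjusted p = 0.00123) and by 0.19 ± 0.05 (edgeR adjusted p = 0.00563). Rps6, the substrate of S6 kinase, fell by 0.14 ± 0.05 (edgeR adjusted p = 0.0262), and Rps14 fell by 0.18 ± 0.05 (edgeR adjusted p = 0.00609). The stalk proteins that recruit elongation factors were not called: Rplp0 changed by 0.09 ± 0.05, Rplp1 by -0.12 ± 0.06 and Rplp2 by 0.04 ± 0.06 (edgeR adjusted p = 0.214, 0.0981 and 0.655). Rps19, the gene most often mutated in Diamond-Blackfan anaemia, had 611 and 634 CPM in HSVTK GANC, against 635 and 638 CPM in HSVTK DMSO, and was not called (-0.03 ± 0.06, edgeR adjusted p = 0.715).

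Rpl7l1, named for its likeness to Rpl7, had 505 and 544 CPM in the libraries labelled HSVTK GANC, against 473 and 467 CPM in HSVTK DMSO (log2 fold change 0.16 ± 0.06, edgeR adjusted p = 0.036). The higher level lay close to the 509 and 562 CPM of Control GANC and the 540 and 552 CPM of Control DMSO, so HSVTK DMSO was the low group. The call of Rpl7l1 was lost with no filter on low counts (0.15, edgeR adjusted p = 0.0525). Without HSVTK GANC replicate 2 the change was 0.09. Rpl7 itself had 1759 and 1840 CPM in HSVTK GANC, against 1863 and 1925 CPM in HSVTK DMSO, and was not called (-0.07 ± 0.05, edgeR adjusted p = 0.253). Whether Rpl7l1 serves as a second copy of Rpl7 in the ribosome was not tested.

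Whether members were called lower more often than all tested genes in the HSVTK drug comparison depended on the setting. With limma on log2(FPKM + 1), 8 of 88 members were lower, against 1823 of all 17976 tested genes, a share no larger among members. The same held when HSVTK DMSO replicate 2 was left out, where the median member change was -0.10. For the other left-out libraries named here, the share was larger among members. The number of called members moved with single libraries. It was 8 without HSVTK DMSO replicate 2, 20 without HSVTK DMSO replicate 1, 16 without HSVTK GANC replicate 1, and 52 without Control GANC replicate 1 or without Control GANC replicate 2, and it was 9 with limma on log2(FPKM + 1). Rpl22l1, Rpl27a, Rpl26, Rpsa, Rpl17, Rpl28 and Rps26 were called in each of these and in the other planned settings, apart from a test against a 1.5-fold change, which called no member.

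Markers of cell types moved with this comparison. The 8 embryonic stem cell markers summed to 5306 and 5480 CPM in the libraries labelled HSVTK GANC, against 6167 and 6268 CPM in HSVTK DMSO. Of these, 4 were called lower, Tdgf1, Sox2, Zfp42 and Utf1, and none higher (median -0.16). The 2-cell-like markers moved the other way, with 3 of 4 tested called higher. Single markers of fibroblasts (Pdgfrb) and trophectoderm (Eomes) were lower and of primitive endoderm (Sox7) higher in HSVTK GANC. Their part in the fall of ribosomal protein genes was not tested.

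In Control cells ganciclovir against DMSO gave 2 called members, both lower, of 88, while 3.35% of all tested genes were called lower and 4.73% higher. Among genes with at least 100 CPM 8.89% were called lower and 9.26% higher. The libraries did not overlap in 19 members that were lower and 3 that were higher with ganciclovir, against 24.5% and 25% of all tested genes. The median member change was -0.01. The small subunit gene Rps10 had 14.2 and 13.9 CPM in Control GANC, against 18.8 and 18.3 CPM in Control DMSO (log2 fold change -0.40 ± 0.12, edgeR adjusted p = 0.0299). Rpl39l had 72.5 and 73.7 CPM in Control GANC, against 91.4 and 88.8 CPM in Control DMSO (-0.30 ± 0.07, edgeR adjusted p = 0.0048). Without Control DMSO replicate 1, or without Control DMSO replicate 2, edgeR called 0 members. Without Control GANC replicate 1 it called 3, of which 2 were higher, and the median turned to 0.05, and without Control GANC replicate 2 it called 4, all lower, with a median of -0.07. The median was 0.02 without Control DMSO replicate 1 and -0.03 without Control DMSO replicate 2, so its sign in Control cells depended on the library left out. With all libraries, 8 of 88 had an unadjusted p below 0.05, and DESeq2 called 3. In Control GANC against Control DMSO, 2 of 4 tested fibroblast markers, Pdgfrb and Thy1, and 2 of 8 embryonic stem cell markers, Tdgf1 and Sox2, were higher, and the neuroectoderm marker Pax6 was lower. Summed fibroblast markers were 14.9 and 17.2 CPM in Control GANC, against 10.2 and 11.5 CPM in Control DMSO, and summed neuroectoderm markers 35.9 and 38.5 CPM in Control GANC, against 49.1 and 51.9 CPM in Control DMSO. The part of these in the 2 calls was not tested.

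The response to ganciclovir differed between HSVTK and Control cells in 19 of 88 members, 17 with a lower and 2 with a higher response in HSVTK cells. Of all tested genes, 14% had a lower and 11.6% a higher response in HSVTK cells, and among those with at least 100 CPM 19.3% and 17.1% did so. The median difference over members was -0.10, and it was -0.17 without Control GANC replicate 1 and -0.05 without Control GANC replicate 2. With each library scaled to its total instead of TMM, 4 members were higher and 12 lower. The count ranged from 6, without Control DMSO replicate 2, to 42, without Control GANC replicate 1, and it was 7 without HSVTK DMSO replicate 2, 10 without HSVTK DMSO replicate 1 and 12 without Control DMSO replicate 1. Of the 8 embryonic stem cell markers, 5 had a lower and none a higher response in HSVTK cells, and their part in the difference was not tested.

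Rpl22l1 had the largest difference of responses, -0.44 ± 0.11 on the log2 scale (edgeR adjusted p = 0.00296), from a change of -0.50 in HSVTK cells and of -0.06 in Control cells. Rpl23a, a large subunit protein gene, had 665 and 678 CPM in HSVTK GANC, against 751 and 792 CPM in HSVTK DMSO, and 789 and 835 CPM in Control GANC, against 761.6 and 730 CPM in Control DMSO. It was thus lower with ganciclovir in HSVTK cells and higher in Control cells, although the Control change of 0.12 was not called, and the difference was -0.32 ± 0.07 (edgeR adjusted p = 0.00153). Rpl17 and Rpl27a followed, with differences of -0.30 ± 0.07 (edgeR adjusted p = 0.00261) and -0.28 ± 0.07 (edgeR adjusted p = 0.00334).

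Both members with a higher response in HSVTK cells are genes of short proteins. Rps29, a zinc-binding protein of the small subunit, had 426 and 463 CPM in HSVTK GANC, against 408 and 416 CPM in HSVTK DMSO, and 388 and 448 CPM in Control GANC, against 491 and 457 CPM in Control DMSO. Neither change was called, at 0.11 ± 0.06 in HSVTK cells and -0.18 ± 0.06 in Control cells, but their difference was 0.29 ± 0.09 (edgeR adjusted p = 0.0149). For Rpl39l the difference was 0.29 ± 0.09 (edgeR adjusted p = 0.0223). Here the change was in Control cells, since HSVTK cells had 128 and 137 CPM with GANC, against 130 and 138 CPM with DMSO. Each of the 2 calls was lost without any 1 of several libraries, with edgeR adjusted p up to 0.148 for Rps29 and 0.186 for Rpl39l over the 8 libraries left out in turn.

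**Figure D3:**
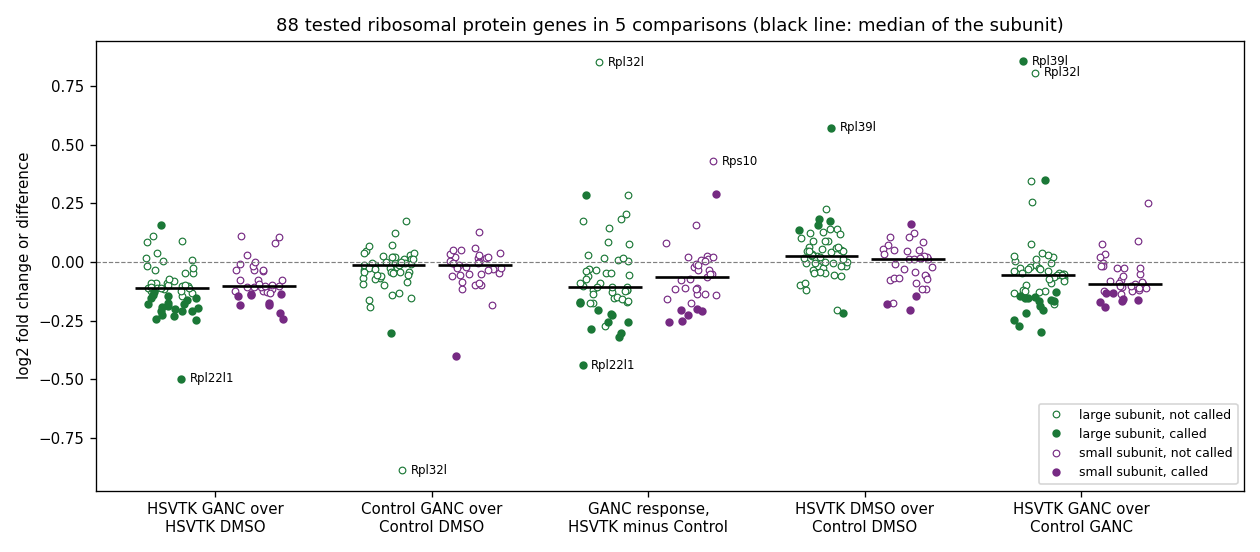
Log2 fold change, or difference of 2 such changes, of the 88 tested members in each of 5 comparisons (green: large subunit, purple: small subunit, filled: adjusted p below 0.05, black line: median of the subunit). The medians lie at -0.11 and -0.10 for ganciclovir in HSVTK cells and at -0.01 and -0.01 in Control cells, and Rpl39l, at 0.57 and 0.86, is the highest called member in both comparisons of HSVTK with Control cells.

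HSVTK and Control cells without ganciclovir differed in few members. Of 88, 6 were higher and 4 lower in HSVTK DMSO, against 16.4% higher and 17.3% lower of all tested genes and 20.9% higher and 27.2% lower of those with at least 100 CPM. The median member was 0.02. The libraries did not overlap in 28 members that were higher and 23 that were lower, against 33.7% and 33.5% of all tested genes. With each library scaled to its total, 13 were higher and 4 lower. Rpl39l was highest, with 130 and 138 CPM in HSVTK DMSO, against 91.4 and 88.8 CPM in Control DMSO (log2 fold change 0.57 ± 0.07, edgeR adjusted p = 5.58e-08). Rpl11 was next with 0.18 ± 0.05 (edgeR adjusted p = 0.00624), then Rpl10l with 0.18 ± 0.06 (edgeR adjusted p = 0.028) and Rps2, which lies at the entry of the mRNA channel, with 0.16 ± 0.05 (edgeR adjusted p = 0.0118).

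Among the 4 lower members was Rpl7l1, with 473 and 467 CPM in HSVTK DMSO, against 540 and 552 CPM in Control DMSO (-0.22 ± 0.06, edgeR adjusted p = 0.00342). Rps29 was lower by a difference of -0.20 ± 0.06 (edgeR adjusted p = 0.0124). Rps4x, the X-linked gene of a small subunit protein, and its retrocopy Rps4l were lower together, by -0.15 ± 0.05 and -0.18 ± 0.06 (edgeR adjusted p = 0.0189 and 0.0172). Of the 10 calls, only that of Rpl39l held in all planned settings other than the test against a 1.5-fold change. Without HSVTK DMSO replicate 2 it was the 1 member called. The number called was 4 without HSVTK DMSO replicate 1, 5 without Control DMSO replicate 1, 4 without Control DMSO replicate 2, and 20 without Control GANC replicate 1 or 2.

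Markers of other cell types also differed between the cell groups. The 4 neuroectoderm markers summed to 18.6 and 21.7 CPM in HSVTK DMSO, against 49.1 and 51.9 CPM in Control DMSO, where 1 of 3 tested, Pax6, was called lower in HSVTK DMSO. The 8 fibroblast markers summed to 21.1 and 24.2 CPM in HSVTK DMSO, against 10.2 and 11.5 CPM in Control DMSO, with 2 of 4 tested called higher in HSVTK DMSO. Thy1 and Pdgfrb carried this sum. Of the 8, 4, with Dcn among them, were at 0 in HSVTK DMSO and 2 in Control DMSO, and Col1a2 was at 0.125 and 0.146 CPM in HSVTK DMSO, against 0.215 and 0.410 CPM in Control DMSO. The 6 primitive endoderm markers summed to 6.19 and 8.07 CPM in HSVTK DMSO, against 3.32 and 4.62 CPM in Control DMSO, with Gata6 and Gata4 called higher in HSVTK DMSO. Of the 8 embryonic stem cell markers, 5 were higher and none lower in HSVTK DMSO. In HSVTK GANC against Control GANC, 3 of 6 primitive endoderm markers, Gata6, Gata4 and Sox7, were higher (median 1.66), Pax6 and Eomes were lower, Thy1 and Hand1 were higher, and 3 of 4 tested 2-cell-like markers were higher. Summed primitive endoderm markers were 6.94 and 7.04 CPM in HSVTK GANC, against 2.72 and 3.06 CPM in Control GANC, and summed neuroectoderm markers 17.5 and 19.2 CPM in HSVTK GANC, against 35.9 and 38.5 CPM in Control GANC. Of the embryonic stem cell markers, Nanog and Tdgf1 were higher and Sox2 lower in HSVTK GANC than in Control GANC. Their part in the differences of ribosomal protein genes was not tested.

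With ganciclovir, 21 members were lower and 2 higher in HSVTK GANC against Control GANC. Of all tested genes 14.9% were lower and 11.1% higher, and of those with at least 100 CPM 21.7% were lower and 13.7% higher. The libraries did not overlap in 39 members that were lower and 6 that were higher, against 29.4% and 30.2% of all tested genes. The median member was -0.08, and with each library scaled to its total it was -0.03, with 7 lower and 2 higher. This comparison shares its libraries with the 2 ganciclovir comparisons, so its values are not separate evidence. Rpl39l had 128 and 137 CPM in HSVTK GANC, against 72.5 and 73.7 CPM in Control GANC (log2 fold change 0.86 ± 0.07, edgeR adjusted p = 5.42e-11). Rpl10l, the testis-enriched second copy of Rpl10, had 203 and 222 CPM in HSVTK GANC, against 160 and 173 CPM in Control GANC (0.35 ± 0.06, edgeR adjusted p = 7.64e-05).

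The lowest members of this comparison were Rpl22l1 (-0.30 ± 0.08, edgeR adjusted p = 0.00408), Rpl23a (-0.27 ± 0.05, edgeR adjusted p = 0.000199), Rpl28 (-0.25 ± 0.05, edgeR adjusted p = 0.00079) and Rpl36a (-0.22 ± 0.05, edgeR adjusted p = 0.00261). For Rpl28, the libraries labelled HSVTK GANC had 897 and 896 CPM and Control GANC 1006 and 1121 CPM. Rpl36a had 477 and 494 CPM in HSVTK GANC, against 555 and 574 CPM in Control GANC, but its fall against HSVTK DMSO was not called (-0.08 ± 0.05, edgeR adjusted p = 0.278). The called members numbered 50 without Control GANC replicate 1 and 13 without HSVTK GANC replicate 1.

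The second copies tested, so called by name alone, include the annotated pseudogenes Rps3a2, Rps3a3, Rpl6l, Rpl32l and Rps4l. Of the 11 second copies tested, 1 was lower and 1 higher in the HSVTK drug comparison (median -0.04), and of the other 77 members 29 were lower and none higher (median -0.11), against 15.2% lower and 13.3% higher of all tested genes. The difference between these sets was not tested, and Rpl32l, Rpl3l and Rpl6l, with means of 0.374, 1.45 and 4.18 CPM, had standard errors of 0.68, 0.33 and 0.19 on the log2 scale, above the median change. By FPKM, which depends on the length of all joined exons, some of them came near their partners. Rpl39l had a mean of 163 FPKM in the libraries labelled HSVTK GANC, 161 in HSVTK DMSO, 87.0 in Control GANC and 107 in Control DMSO. Its partner Rpl39, whose protein lines the exit tunnel of the large subunit, had means of 175 FPKM in HSVTK GANC, 185 in HSVTK DMSO, 185 in Control GANC and 189 in Control DMSO. The level of Rpl39l was thus below that of Rpl39 in all 4 groups, by the widest margin in Control GANC. In counts the gap was wider, with means over 8 libraries of 107 CPM for Rpl39l and 264 CPM for Rpl39. The nearness in FPKM therefore depends on the length used.

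Rpl39 was not called in any comparison, with log2 fold changes between -0.13 and -0.04 in the 4 comparisons of groups. Rps4l had a mean of 484 FPKM over all libraries and Rps4x 1196. Rps27l had 256 FPKM beside 272 for Rps27, and in counts 209 CPM beside 284 CPM. Rps27l, a target of p53, and Rps27 were not called in any comparison. Rpl10l had 190 FPKM and Rpl10 688, and Rpl22l1 26.3 and Rpl22 176.

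**Figure D4:**
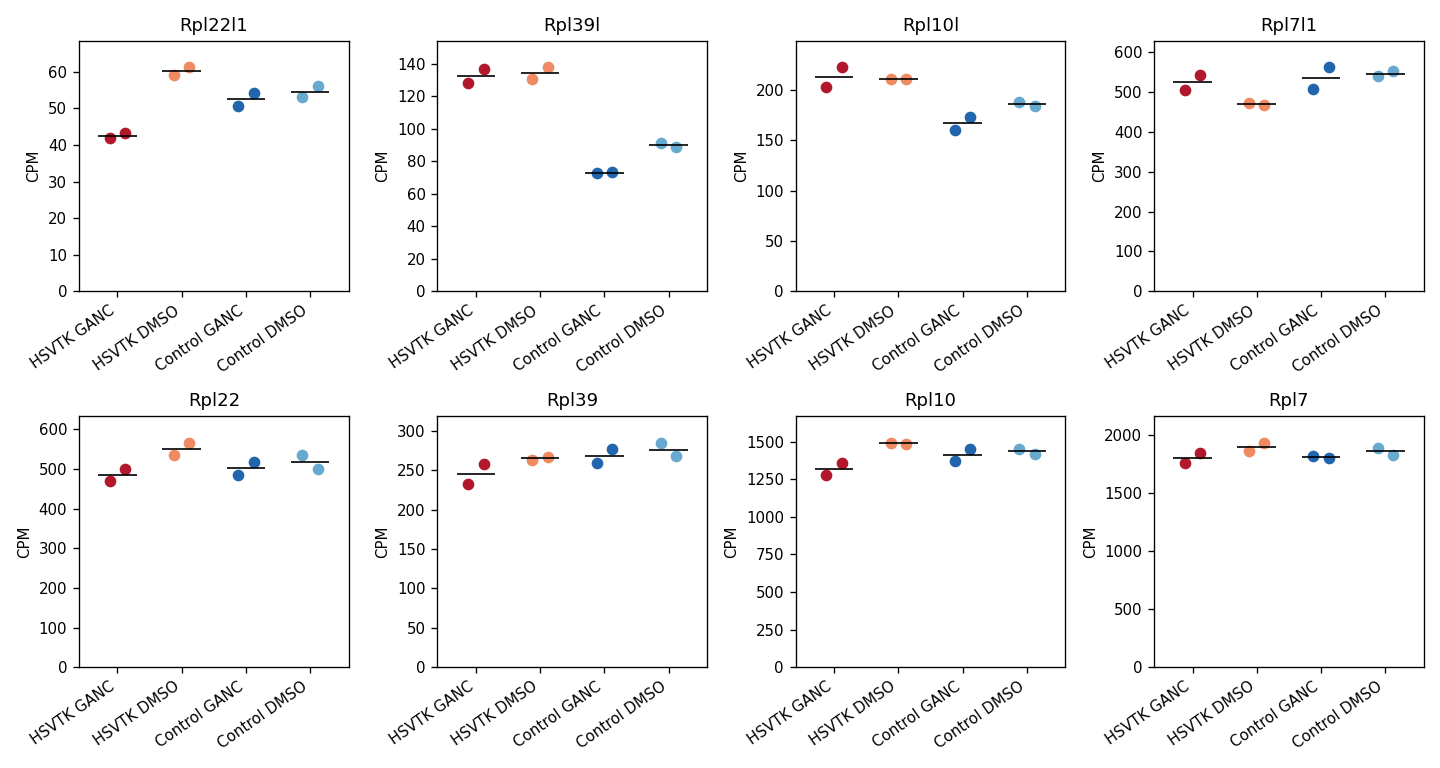
CPM in each library (points, with a line at the mean of 2) of 4 second copies by name in the upper row and their partners by name below, on axes from 0. Rpl22l1 is lowest in the libraries labelled HSVTK GANC, at 41.9 and 43.3, Rpl39l and Rpl10l are higher in all 4 HSVTK libraries than in any Control library, and Rpl7l1 is lowest in HSVTK DMSO, while the partners vary less.

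Scaling each library to its own ribosomal protein counts, a setting added after the data were seen, gives the change of each member relative to the summed family. In the HSVTK drug comparison 3 members were then lower, Rpl22l1 (-0.38, edgeR adjusted p = 0.00293), Rpl27a (-0.12, edgeR adjusted p = 0.026) and Rpsa (-0.12, edgeR adjusted p = 0.0129). A further 8 were higher, among them Rplp0, Rplp2, Rps4l, Rps27l, Rps29 and Rpl7l1, and for Rpl7l1 the value was 0.28 (edgeR adjusted p = 0.00092). Of all 17976 tested genes, 3446 were higher and 1414 lower on this scale in the HSVTK drug comparison. In HSVTK against Control cells under DMSO 4 members were higher and 7 lower on this scale, against 2372 higher and 2842 lower of all 17976 tested genes. The median member is near 0 by construction, at 0.01 in the HSVTK drug comparison. Members that did not fall with the family are moved up by the scale itself, so these calls are not separate evidence.

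Position in the genome was checked because members lie scattered over 19 chromosomes. For each member the median change of up to 30 neighbouring genes with at least 5 CPM, none of them a ribosomal protein gene, was set beside its own. In the HSVTK drug comparison these medians had a median of -0.02, against -0.11 for the members. Around Rpl27a, on chromosome 7, the neighbours changed by -0.19 beside -0.25 for the gene, and around Rpl4, on chromosome 9, by -0.22 beside -0.20. The part of the neighbourhood in these 2 calls was not tested. Around Rps18 the neighbours lay at 0.22 while the gene changed by -0.17. In HSVTK against Control cells under DMSO, the neighbours of Rpl39l had a median of -0.09 beside 0.57 for the gene.

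Of 71 ribosome biogenesis genes, 20 were higher and 4 lower in HSVTK GANC against HSVTK DMSO (median 0.06), where 13.3% of all tested genes were higher and 15.2% lower. Ddx56, an RNA helicase of ribosome assembly, was higher by 0.59 ± 0.07, Nop56, of the box C/D snoRNP that methylates ribosomal RNA, by 0.44 ± 0.05, and Imp4, of the U3 snoRNP, by 0.45 ± 0.06 (edgeR adjusted p = 9.96e-08, 2.91e-07 and 3.29e-06). In HSVTK DMSO against Control DMSO 1 gene of this list was higher and 38 were lower (median -0.18), against 16.4% higher and 17.3% lower of all tested genes. The RNA acetyltransferase gene Nat10 (-0.69 ± 0.06) and the small subunit processome genes Utp20 (-0.60 ± 0.06) and Utp14a (-0.55 ± 0.06) had the lowest adjusted p. In Control cells with ganciclovir 1 was higher and 12 were lower (median -0.10), against 4.73% higher and 3.35% lower of all tested genes. The lower ones included Ftsj3 (-0.32 ± 0.05), Nop58 (-0.28 ± 0.05) and Heatr1 (-0.28 ± 0.06). The responses differed, HSVTK minus Control, in 26 genes that were higher and 3 that were lower, against 11.6% and 14% of all tested genes. In HSVTK GANC against Control GANC 6 were higher and 7 lower, against 11.1% and 14.9% of all tested genes, and with library totals 17 were higher and 5 lower. Both ganciclovir comparisons use the DMSO libraries of the comparison between cell groups, so the directions are not independent.

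RNA polymerase I genes numbered 14, of which 4 were higher and 1 lower in HSVTK GANC against HSVTK DMSO, where 13.3% of all tested genes were higher and 15.2% lower. Ttf1, the termination factor, was higher by 0.53 ± 0.09 and Polr1a, the largest subunit, by 0.38 ± 0.07. In HSVTK DMSO against Control DMSO Polr1a differed by -1.40 ± 0.07. Mitochondrial ribosome genes, encoded in the nucleus but serving another ribosome, had 10 higher and 2 lower of 77 in HSVTK GANC against HSVTK DMSO (median 0.02), so that their share of higher genes was near that of all tested genes. In HSVTK DMSO against Control DMSO 6 were higher and 19 lower, where 16.4% of all tested genes were higher and 17.3% lower. Of 6 assembly chaperones of ribosomal proteins, 0 were called in HSVTK GANC against HSVTK DMSO, with 0 in Control cells too, by edgeR at an adjusted p. Of 99 tested ribosomal protein pseudogenes, 2 were higher and 2 lower in HSVTK GANC against HSVTK DMSO.

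Of the 19 other mRNAs known to start with a TOP tract, none was called higher and 4 were called lower in HSVTK GANC against HSVTK DMSO (median -0.08). This share is near the 20.5% called lower among all tested genes with at least 100 CPM. The elongation factor gene Eef2 changed by -0.35 ± 0.05, Eif4b by -0.26 ± 0.05, Hnrnpa1 by -0.21 ± 0.05 and Eef1a1 by -0.12 ± 0.04. In Control cells 2 of the 19 were higher and 2 lower with ganciclovir, where 9.26% and 8.89% of all tested genes with at least 100 CPM were so called, and Eef2 was higher there, by 0.21 ± 0.05. In HSVTK GANC against Control GANC 0 were higher and 9 lower (median -0.14), against 13.7% and 21.7% of genes with at least 100 CPM. With library totals 5 were lower there. In HSVTK DMSO against Control DMSO 1 was higher and 5 were lower, against 20.9% and 27.2% of such genes. The response, HSVTK minus Control, was higher in 1 and lower in 4, against 17.1% and 19.3%.

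Of 21 mTORC1 and Myc genes, which regulate ribosomal protein supply, 3 were higher, 5 lower and 13 not called in HSVTK GANC against HSVTK DMSO. Of all tested genes 13.3% were higher and 15.2% lower there, and of those with at least 100 CPM 16.2% were higher and 20.5% lower. Many genes of the list lie below 100 CPM, such as Mycl, Mlst8 and Rps6kb2. A difference of the list from either background was not tested. Ddit4, an inhibitor of mTORC1, fell by 0.62 ± 0.07, the transcription factor gene Mycn by 0.57 ± 0.07 and Tsc1, which also restrains mTORC1, by 0.45 ± 0.09. Other genes of the list lay higher in both HSVTK GANC libraries than in both HSVTK DMSO libraries. Myc had 85.17 and 79.52 CPM in HSVTK GANC, against 68.98 and 66.09 CPM in HSVTK DMSO. Tsc2 had 125.5 and 109.1 CPM in HSVTK GANC, against 101.97 and 98.28 CPM in HSVTK DMSO, and Rps6kb2 was higher too. In Control cells Ddit4 was higher with ganciclovir, by 0.74 ± 0.07. Of 4 genes of the p53 pathway, Cdkn1a, Mdm4 and Trp53 were higher in HSVTK GANC against HSVTK DMSO, by 0.39 ± 0.09, 0.29 ± 0.08 and 0.19 ± 0.06. Mdm2 was not called, and of all tested genes 13.3% were higher and 15.2% lower. A part of free ribosomal proteins in these changes was not tested. In HSVTK DMSO against Control DMSO 3 of the 4, Cdkn1a, Mdm2 and Trp53, were lower (median -0.33), against 16.4% higher and 17.3% lower of all tested genes. In Control cells Mdm2 was lower with ganciclovir, against 4.73% higher and 3.35% lower of all tested genes. Cdkn1a had 35.2 and 37.4 CPM in HSVTK GANC, against 26.3 and 29.2 CPM in HSVTK DMSO, while the 4 Control libraries had 43.0 to 53.3 CPM. The higher level in HSVTK GANC was thus still below every Control library.

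**Figure D5:**
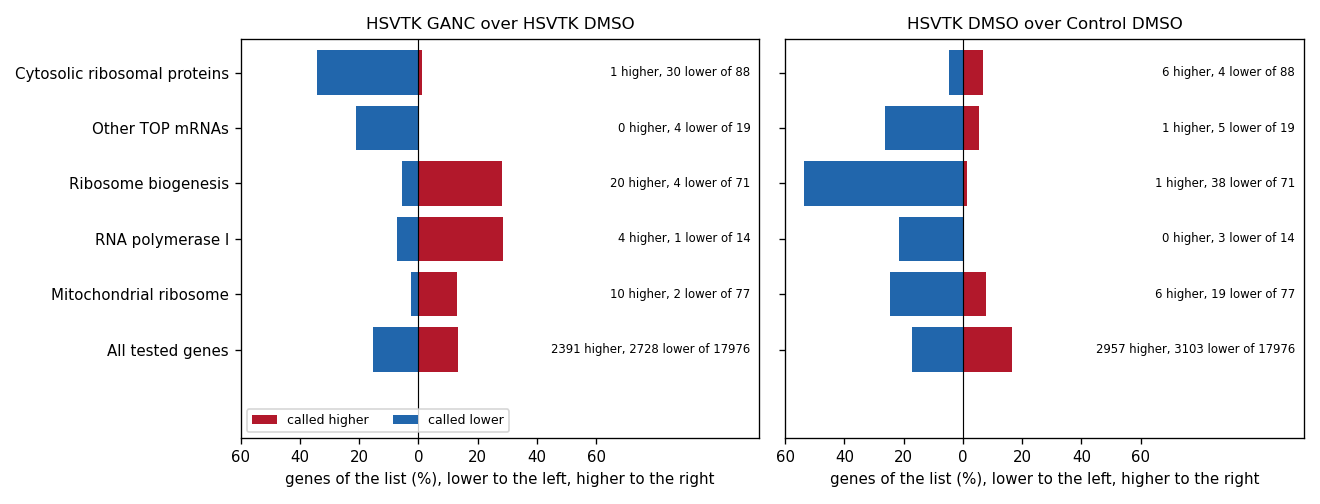
Percent of each gene list called higher (right, red) and lower (left, blue) at an adjusted p below 0.05, with all tested genes at the bottom. Cytosolic ribosomal proteins have 30 of 88 lower and ribosome biogenesis genes 20 of 71 higher in HSVTK GANC over HSVTK DMSO, while in HSVTK DMSO over Control DMSO 38 of 71 ribosome biogenesis genes and 4 of 88 ribosomal proteins are lower.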

How the data were processed

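Total RNA libraries of mouse embryonic stem cells were assigned to groups from their titles. Tools listed in the submitters' processing notes are featureCounts 2.0.1, HISAT2 2.1.0, fastp 0.23.2 and DESeq2 1.40.2, with the build GRCm39, without roles or parameters. How strand and multi-mapped reads were treated was not given. The authors deposited raw counts per gene and FPKM per gene. All 712 FPKM values of the members equal the count divided by exon length and library total within 1e-04.

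Counts of all genes were fitted here with edgeR 4.0.16 (R 4.3.3): TMM scaling, filterByExpr by group, 1 mean per group over 8 libraries (4 residual degrees of freedom), and the quasi-likelihood F test with Benjamini-Hochberg adjustment over 17976 genes, called below 0.05. The biological coefficient of variation was 6.31%. Standard errors were taken as the size of the log2 fold change over the root of F. CPM carries TMM factors. FPKM served as levels per length and, on the log2(FPKM + 1) scale, for limma 3.58.1. DESeq2 1.42.0, other scalings and filters, each library left out and a replicate block were alternatives.

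Chi-square per degree of freedom between the 2 replicates was 3.58 to 8.39, above counting noise, so all were kept as separate samples. Members, lists and named genes were chosen with earlier results of these data known. The rule for named genes took, in each comparison, the 4 largest called changes each way at a mean CPM of at least 1, the 3 highest and lowest members in FPKM, genes of known roles and up to 3 called genes a list. Rps26, Rps18, Rpl34, Rpl35, Rpl4, Rpl12, Rps3a1 and Rps3a2 were named beyond this rule after values were seen. The neighbourhood medians and the shared-sequence values were also added after values were seen. Shared sequence came from GENCODE vM21 transcripts and promoters from RefSeq, both on GRCm38, so they were matched by symbol or Ensembl ID only.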

Additional observations from a re-analysis of the deposited data

Results flagged for a closer look

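The response to ganciclovir differed between HSVTK and Control cells, by a test of the difference itself, in 19 of 88 ribosomal protein genes. In HSVTK cells 17 had a lower and 2 a higher response. Of all tested genes 14% were lower and 11.6% higher, and of those with at least 100 CPM 19.3% and 17.1%. Members were thus called no more often than other genes of such levels. The largest of the 19 were Rpl22l1 (-0.44 on the log2 scale, HSVTK minus Control), Rpl23a (-0.32), Rpl17 (-0.30) and Rpl27a (-0.28) on the lower side. On the higher side were Rps29 (0.29) and Rpl39l (0.29). Of these 6, Rpl22l1, Rpl23a and Rpl17 remained called under all planned settings other than the test against a 1.5-fold change.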

How the results depend on the processing

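Called members kept their sign in every setting in all 5 comparisons, but their number did not hold. With limma on log2(FPKM + 1) it was 9 for ganciclovir in HSVTK cells, 1 in Control cells, 5 for the difference of responses and 7 for HSVTK GANC against Control GANC. Against a 1.5-fold change it was 0, 0, 0 and 0 in the first 4 comparisons and 1, Rpl39l, in HSVTK GANC against Control GANC. Library totals in place of TMM gave 17 for HSVTK DMSO against Control DMSO and 9 under GANC, and fitting only the libraries compared gave 26 under DMSO and 7 under GANC. Scaled to the ribosomal protein counts, the numbers were 11 and 1 for ganciclovir in HSVTK and Control cells, 11 for the difference and 8 for HSVTK GANC against Control GANC. Leaving out 1 library, which assumes that a lone library varies like the others, gave 8 to 52, 0 to 4, 6 to 42, 1 to 20 and 13 to 50 in the order of the report. The cause was not tested.

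Replicate numbers did not pair the libraries, with correlations of deviations from -0.49 to 0.30 between groups. The replicate block gave 28, 2, 17, 9 and 19 called members, and with the Control DMSO numbers crossed, a setting chosen after seeing the data, 50, 5, 31, 20 and 35. DESeq2 called 35, 3, 21, 12 and 25. Called in every planned setting other than the 1.5-fold test were 7 of 31, 0 of 2, 3 of 19, 1 of 10 and 7 of 23. With 2 libraries a group, and a family that shifts by up to 0.10 between libraries of a group, changes of this size are at the limit of what these data can resolve.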
